A study of Homo sapiens with 16 samples.

Results

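The immunoglobulin genes and JCHAIN were followed through 8 populations of human myeloma cells. The members are the genes whose symbols in the deposited count tables begin with IGH, IGK or IGL and go on with V, D, J, C, G, A, M or E, together with JCHAIN. That rule takes 39 of the 15529 genes listed in either cell line. IGHMBP2, a helicase gene on chromosome 11 that the letters take by accident, was left out of every sum and count, which leaves 38 members. In KMS12PE 9 members were among 12592 genes listed, in KMS27 33 were among 14560, and 4 (IGHG1, IGHV3-7, IGLC1 and JCHAIN) were listed in both.

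KMS12PE and KMS27 are established myeloma lines that carry t(11;14), the translocation that places the cyclin gene CCND1 beside the heavy chain locus. The groups were KMS12PE clones A, C and D against KMS12PE parental cells, and KMS27 clones B5, C1 and C5 against KMS27 parental cells, with 2 libraries for each population and 16 libraries in all. Each clone was grown out of 1 single cell after high-dose venetoclax, a drug that blocks BCL2, and was then maintained in the drug at 100 nM. The dose on the parental cells is not stated, so drug, selection and descent from 1 cell cannot be told apart. Nothing says that the paired libraries came from separate cultures, so p-values measure the spread between these libraries, which may be technical. In these bulk samples fewer cells of a type and less RNA per cell cannot be told apart.

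An antibody is made of paired heavy and light chains. Each chain joins a variable region, encoded by 1 V segment that was rearranged next to short D or J segments, to a constant region that sets its class. Plasma cells, the cells that become malignant in myeloma, devote much of their messenger RNA to 1 heavy and 1 light chain, and a clone keeps the V segments of its founder. The joining chain, encoded by JCHAIN, links the units of polymeric IgA and IgM and is also made by many plasma cells of other classes. Kappa genes lie on chromosome 2, heavy chain genes on chromosome 14 and lambda genes on chromosome 22.

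V segments and constant genes resemble each other closely, which decides how far reads can be placed. The coding sequences below are shown because the results turn on them. They come from the GENCODE release 29 transcripts (GRCh38), 5′ to 3′ on the coding strand, and are germline reference sequences rather than the rearranged genes of these cells. The first 300 coding bases of each are given. Capitals in the first pair mark the bases at which IGHV3-48 and IGHV3-21 differ, 18 in these stretches and 19 over all 351 aligned bases. IGHV3-48 lies at chr14:106537810-106538344 on the minus strand and IGHV3-21 at chr14:106235064-106235594 on the minus strand.
IGHV3-48: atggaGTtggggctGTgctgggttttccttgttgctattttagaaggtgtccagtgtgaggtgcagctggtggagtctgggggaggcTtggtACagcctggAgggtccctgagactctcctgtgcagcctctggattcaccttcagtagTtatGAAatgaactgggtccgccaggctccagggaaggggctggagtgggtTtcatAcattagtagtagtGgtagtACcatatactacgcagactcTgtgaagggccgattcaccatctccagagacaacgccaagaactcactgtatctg
IGHV3-21: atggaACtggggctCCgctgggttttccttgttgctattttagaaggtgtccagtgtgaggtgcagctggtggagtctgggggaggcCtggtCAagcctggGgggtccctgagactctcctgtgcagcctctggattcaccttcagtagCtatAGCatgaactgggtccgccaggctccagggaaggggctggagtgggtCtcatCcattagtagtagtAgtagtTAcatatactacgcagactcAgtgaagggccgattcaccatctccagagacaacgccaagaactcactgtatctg
IGHV3-7, the leading V segment of KMS12PE, lies at chr14:106062151-106062683 on the minus strand, and its capitals mark bases that differ from IGHV3-48, 29 here and 31 over the 351 aligned bases.
IGHV3-7: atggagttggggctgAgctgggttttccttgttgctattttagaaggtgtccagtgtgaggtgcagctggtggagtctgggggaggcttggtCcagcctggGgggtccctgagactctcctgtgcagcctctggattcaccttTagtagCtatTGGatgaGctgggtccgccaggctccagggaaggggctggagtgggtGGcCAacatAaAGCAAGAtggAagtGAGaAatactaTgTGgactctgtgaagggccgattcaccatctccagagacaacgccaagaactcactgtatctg
IGKV2D-40 (chr2:89851791-89852497, plus strand) and IGKV1D-39 (chr2:89862482-89862981, plus strand) are the leading kappa V segments of KMS27 and stand 9984 bases apart. Capitals in IGKV2D-40 mark bases that differ from IGKV2D-28 (chr2:89959979-89960754, plus strand), 24 here and 31 over the 327 aligned bases. IGKV1D-39 and IGKV2D-28 have no capitals, because their 351 and 360 aligned bases are identical in the second copies of these genes, IGKV1-39 and IGKV2-28.
IGKV2D-40: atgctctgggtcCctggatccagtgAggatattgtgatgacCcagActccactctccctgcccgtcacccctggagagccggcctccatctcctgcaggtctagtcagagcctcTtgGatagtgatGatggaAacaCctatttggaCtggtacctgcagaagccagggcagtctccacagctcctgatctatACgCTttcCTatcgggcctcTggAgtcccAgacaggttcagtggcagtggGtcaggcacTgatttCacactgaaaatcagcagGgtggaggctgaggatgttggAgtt
IGKV1D-39: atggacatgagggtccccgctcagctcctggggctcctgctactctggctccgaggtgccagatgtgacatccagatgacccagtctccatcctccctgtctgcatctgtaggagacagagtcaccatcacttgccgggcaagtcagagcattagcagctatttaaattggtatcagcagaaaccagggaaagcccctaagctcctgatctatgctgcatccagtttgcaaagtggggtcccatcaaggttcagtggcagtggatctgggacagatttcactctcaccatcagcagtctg
IGKV2D-28: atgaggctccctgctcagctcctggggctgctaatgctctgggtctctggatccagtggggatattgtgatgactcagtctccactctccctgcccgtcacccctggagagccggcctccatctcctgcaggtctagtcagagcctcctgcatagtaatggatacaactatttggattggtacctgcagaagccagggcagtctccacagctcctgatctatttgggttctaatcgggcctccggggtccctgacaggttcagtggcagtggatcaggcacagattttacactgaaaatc
IGLC1, the first lambda constant region (chr22:22895375-22895834, plus strand), has no capitals. All 460 of its exon bases are also covered by exons of IGLL5, a surrogate light chain-like gene, so the levels of these genes cannot be separated by position alone.
IGLC1: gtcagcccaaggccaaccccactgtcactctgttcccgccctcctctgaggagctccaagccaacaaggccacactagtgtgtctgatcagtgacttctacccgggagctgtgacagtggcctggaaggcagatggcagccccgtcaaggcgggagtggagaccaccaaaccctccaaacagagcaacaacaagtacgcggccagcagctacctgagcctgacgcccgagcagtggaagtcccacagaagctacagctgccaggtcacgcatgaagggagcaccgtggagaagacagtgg

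Members took a far larger part of the RNA in KMS27 than in KMS12PE, and in KMS27 the clones gave them a smaller part than the parental cells did. The share of all counts in KMS27 was 2.82% and 3.55% in clone B5, 2.69% and 3.41% in clone C1 and 2.18% and 2.40% in clone C5, against 4.58% and 5.01% in parental cells. No clone library reached either parental library, and the means were 0.664, 0.636 and 0.477 times the parental mean in clones B5, C1 and C5. In each of the 4 KMS27 populations the replicate 2 library had the higher share. Whether part of the spread follows replicate number was not tested. In KMS12PE the share was 0.230% and 0.243% in clone A, 0.200% and 0.203% in clone C and 0.216% and 0.225% in clone D, against 0.239% and 0.271% in parental cells. Clone A overlapped the parental libraries, and clones C and D lay below them. Without JCHAIN the mean of clone D turned to 0.01 percentage points above the parental mean. A share is a summed score over the members and was not tested. Its exact 95% binomial interval, which covers counting error only, was 0.198% to 0.203% in the lowest library (clone C replicate 1) and 5.01% to 5.02% in the highest (KMS27 parental replicate 2).

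**Figure D1:**
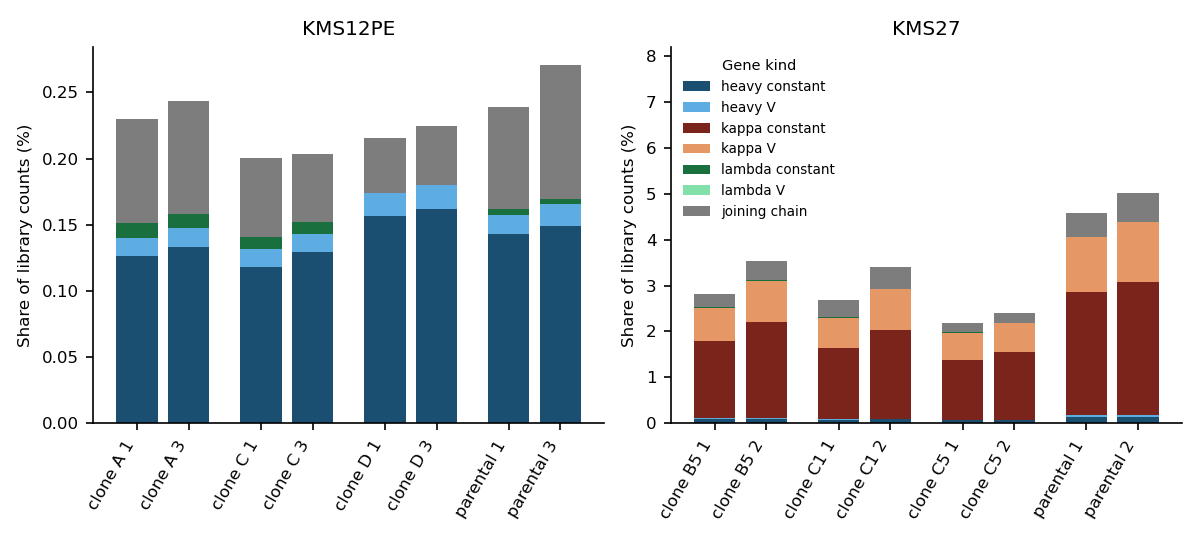
Share of library counts (%) taken by the members in each library, with 1 bar per library, split by kind of gene, clones left of parental cells. The axes of the 2 panels differ, with KMS12PE between 0.200% and 0.271% and KMS27 between 2.18% and 5.01%; kappa genes fill most of each KMS27 bar and are absent from the KMS12PE bars.

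The edgeR quasi-likelihood test, with Benjamini-Hochberg adjustment over all genes of a line and a call at an adjusted p under 0.05, was used for single genes. Levels are CPM, the usual scaling of counts to the size of a library, here with TMM factors, and log2 fold changes are a clone, or the mean of the 3 clones, minus parental. Of the 33 members in KMS27, 31 passed the filter on low counts. For the mean of the clones 3 were higher and 12 lower, against a background of 25.8% of all genes called in this comparison (13% higher and 12.7% lower). The median log2 fold change was -0.78 over the tested members and -0.01 over all genes tested. Clone B5 had 4 higher and 6 lower, against a background of 21% (10.8% higher and 10.2% lower). Clone C1 had 3 higher and 6 lower, against 21.6% (11.5% and 10.1%), and clone C5 had 3 higher and 14 lower, against 19.7% (10.4% and 9.28%). Among the members in these counts, IGKV3D-7, IGKV3OR2-268 and IGLC3 passed the filter only through clone libraries, and IGHGP only through parental ones. The direction of their calls was set by that selection. Between the clones 9 members differed, against 13.7% of all genes. Without parental replicate 2 the 15 calls for the mean became 7. The 10 calls in clone B5 became 4 without either parental library and 6 without either clone C5 library. The 9 in clone C1 became 4 without clone C1 replicate 1 or parental replicate 1, and 15 and 14 without clone B5 replicates 1 and 2. The 17 in clone C5 became 8 and 9 without clone C5 replicates 1 and 2, and 10 and 11 without parental replicates 1 and 2. The 9 between the clones became 3 to 5 without any 1 clone C1 or C5 library, and 19 and 14 without clone B5 replicates 1 and 2. Called lower in each clone were IGHG1, IGHG3, IGHV3-21, IGHV3-48 and IGKV2-24, and IGLC2 was called higher in each. The share of all genes called in 1 direction in each clone was not computed, so these names have no background beside them.

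In KMS27 the heavy chain RNA was mostly that of IgG1. Protein was not measured. IGHG1, its constant region, gave 94.9% to 96.4% of heavy constant counts in the clones and 94.9% to 95.2% in parental cells. IGHG1 had 912 and 973 CPM in clone B5, 757 and 845 CPM in clone C1 and 555 and 606 CPM in clone C5, against 1251 and 1358 CPM in parental cells. All 6 clone libraries lay below both parental libraries, with clone C5 the lowest. The log2 fold change of IGHG1 was -0.78 ± 0.11 (SE; adjusted p = 0.00104) for the mean of the clones, -0.47 (0.0395) for B5, -0.70 (0.00807) for C1 and -1.17 (0.000656) for C5. The clones also differed among themselves (adjusted p = 0.0254). The IGHG1 call in clone B5 ended without any 1 of the clone C1, clone C5 or parental libraries (adjusted p of 0.0690 to 0.216) and in a fit of clone B5 and parental cells alone (0.169), and that in clone C1 ended without clone C1 replicate 1 or either parental library (0.0532 to 0.0947).

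The other gamma genes of KMS27 were at much lower levels. IGHG3, the constant region of IgG3, had 37.7 and 39.4 CPM in clone B5, 33.1 and 35.0 CPM in clone C1 and 19.5 and 19.4 CPM in clone C5, against 58.7 and 59.5 CPM in parental cells. Its libraries agreed within each population and did not overlap with parental cells in any clone (log2 fold change -1.01 ± 0.08 for the mean, adjusted p = 4.18e-05). IGHG4 fell too (-1.02, adjusted p = 0.00652), a call that ended without parental replicate 2 (0.0895). IGHGP, a gamma pseudogene with 4 to 19 counts a library, was called for the mean (-1.35, adjusted p = 0.0366), but not with DESeq2 (0.168) or without any of 6 libraries, namely both of clones C1 and C5 and both parental ones (0.0533 to 0.238). IGHG2 (-1.71, adjusted p = 0.0646), called for the mean without either clone B5 library or clone C1 replicate 1 (0.00934 to 0.0492), and the alpha genes IGHA1 (1.10, 0.149) and IGHA2 (-0.47, 0.417) were not called for the mean in the fit of all libraries. IGHA2 was called lower in clone C5 alone (-1.79, adjusted p = 0.0481), a call that ended without any 1 of the clone C1, clone C5 or parental libraries (0.0547 to 0.286), with DESeq2 (0.0862) and with scaling to library totals alone (0.0667). In clone C1 IGHA1 was called higher in an edgeR fit of clone C1 and parental cells alone (1.81, adjusted p = 0.0301). It was not called there in the fit of all libraries. IGHGP and IGHG2 passed the filter on low counts only through parental libraries, and IGHA1 only with its clone libraries. In each case that is the group where the gene is high, so its direction was set by that selection. IGHG1 shares 95.9% of its aligned coding bases with IGHG3 and 94.98% with IGHG4, and how the authors' counting placed reads that fit several genes is not given, so the split among gamma genes is uncertain.

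The leading heavy V segment of KMS27 was IGHV3-48, and it fell in each clone. IGHV3-48 had 133 and 157 CPM in clone B5, 110.4 and 138 CPM in clone C1 and 73.4 and 84.7 CPM in clone C5, against 288 and 321 CPM in parental cells. The log2 fold change was -1.44 ± 0.11 for the mean (adjusted p = 4.96e-05), -1.07 for B5 (0.00153), -1.29 for C1 (0.000725) and -1.95 for C5 (7.54e-05). No clone library of IGHV3-48 reached a parental one. IGHV3-21, 94.6% identical to it over the 351 aligned coding bases, had 1.95 to 5.61 CPM in clone libraries, against 11.9 and 12.4 CPM in parental cells (-1.69 ± 0.19, adjusted p = 0.000387). Its call in clone C1 ended without clone C1 replicate 1 (0.0848). IGHV3-13 was lower for the mean as well (-1.65, adjusted p = 0.0102), a call that ended without either parental library (0.0736 and 0.0851). IGHV3-7, at 0.0674 to 0.691 CPM in clones and 1.01 and 1.02 CPM in parental cells, was not called for the mean (-1.70, adjusted p = 0.0519), save without clone B5 replicate 1 (0.028) or 2 (0.00598). In clone C5 it was called without either clone B5 library (-2.57 in each case, 0.00971 and 0.0104) and in a fit of clone C5 and parental cells alone (-2.58, 0.00687). These 4 segments are of 1 family and the split of reads among them is uncertain.

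IGHV4-39, a segment of another family, did not follow IGHV3-48 in clones B5 and C1. IGHV4-39 had 46.6 and 46.5 CPM in clone B5, 32.5 and 36.5 CPM in clone C1 and 25.2 and 28.3 CPM in clone C5, against 34.9 and 32.9 CPM in parental cells. Clone B5 was above the parental libraries, clone C1 spanned them and clone C5 was below them. In clone C5 IGHV4-39 was called lower in an edgeR fit of clone C5 and parental cells alone (-0.35, adjusted p = 0.0364). It was not called there in the fit of all libraries or with the replicate block (-0.35, 0.0563). The mean was not called (log2 fold change 0.05 ± 0.09, adjusted p = 0.757), while the clones differed among themselves (0.00763). In clone B5 IGHV4-39 was called higher (0.46, adjusted p = 0.0217), a call that ended without either parental library (0.0922 and 0.138) and in a fit of clone B5 and parental cells alone (0.0701). IGHV4-39 made up 20.2% to 25.3% of heavy V counts in clone libraries, against 8.93% and 10.3% in parental cells. IGHV3-48 made up 71.99% to 76.2% in clones and 85.4% and 87.0% in parental cells. Per kilobase of exon, IGHV3-48 stood at 170.0 to 364 CPM and IGHV4-39 at 59.3 to 109.7 CPM in clones, against 667 and 742 CPM for IGHV3-48 and 77.5 and 82.1 CPM for IGHV4-39 in parental cells.

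**Figure D2:**
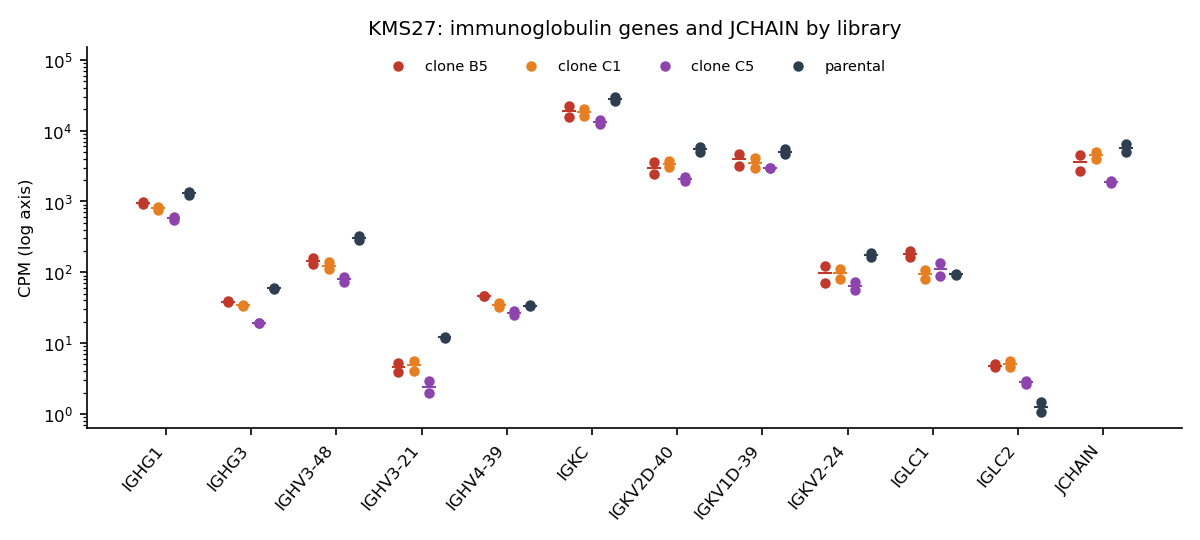
CPM (log axis) of 12 members in each KMS27 library, with 1 point per library, a short line at each population mean, and clones left of parental cells for every gene. IGHG1, IGHG3, IGHV3-48 and IGHV3-21 lie lower in all 6 clone libraries, IGLC2 lies higher in all 6, and IGHV4-39 differs in direction between clones.

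The light chain RNA of KMS27 was mostly kappa, which gave 98.9% to 99.5% of light constant counts in clones and 99.6% to 99.7% in parental cells. IGKC, the kappa constant region and the most abundant member, had 15406 and 22499 CPM in clone B5, 16124 and 20457 CPM in clone C1 and 12492 and 14153 CPM in clone C5, against 25971 and 30291 CPM in parental cells. All clone libraries lay below both parental ones, but clones B5 and C1 were spread widely. IGKC was lower for the mean (-0.76 ± 0.19, adjusted p = 0.0199) and in clone C5 (-1.08, 0.0156), and not called in clone B5 (-0.57, 0.136) or clone C1 (-0.62, 0.101). In both of these clones IGKC was called with DESeq2 (adjusted p = 0.0194 in B5 and 0.0099 in C1) and with scaling to library totals alone (0.0373 and 0.0217). It was also called in B5 without clone B5 replicate 2 (0.00416) and in C1 without either clone B5 library (0.0064 and 0.00453). The mean call on IGKC ended without clone C1 replicate 1, either clone C5 library or either parental library (adjusted p of 0.0671 to 0.162), and that in clone C5 without either clone C5 or parental library (0.0580 to 0.198). Per kilobase of exon IGKC stood at 89.2 to 128 times IGHG1 in clone libraries and at 109.6 and 118 times in parental libraries, so the ranges overlapped.

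IGKV2D-40 and IGKV1D-39 carried most of the kappa V counts. IGKV2D-40 had 2409.9 and 3591 CPM in clone B5, 3058 and 3751 CPM in clone C1 and 1943 and 2204 CPM in clone C5, against 5037 and 5919.9 CPM in parental cells, with no overlap. It was lower for the mean (-0.99 ± 0.17, adjusted p = 0.00355), in clone B5 (-0.87, 0.0239) and in clone C5 (-1.40, 0.00312), and in clone C1 it was -0.69 (0.0563). In clone C1 IGKV2D-40 was called with DESeq2 (0.00389), with scaling to library totals alone (0.0144), in a fit of clone C1 and parental cells alone (0.0133) and without either clone B5 library (0.00217 and 0.00173). IGKV1D-39 had 3204 and 4663 CPM in clone B5, 2978 and 4069 CPM in clone C1 and 2937 and 2976 CPM in clone C5, against 4711 and 5418 CPM in parental cells. Clone B5 replicate 2 came close to the lower parental library. In clone C1 IGKV1D-39 was not called in the fit of all libraries. It was called there with DESeq2 (-0.52, adjusted p = 0.0409) and in edgeR with scaling to library totals alone (-0.59, 0.0436). Without clone B5 replicates 1 and 2 its log2 fold change in clone C1 was -0.51 and -0.52. In clone B5 it was -0.66 without clone B5 replicate 2. IGKV1D-39 passed narrowly for the mean (-0.55 ± 0.18, adjusted p = 0.0496), and that call ended with RLE scaling (0.0522), with scaling on the other genes alone (0.0568), without the filter (0.0518) and without any 1 of the clone C1, clone C5 or parental libraries (0.0534 to 0.281). Its call in clone C5 (-0.78, adjusted p = 0.0423) ended without the same libraries (0.0606 to 0.238). The IGKV2D-40 call ended without parental replicate 2 for the mean (0.0505), without clone C5 replicate 1 for clone C5 (0.0640), and for clone B5 without any clone C5 or parental library (0.0683 to 0.131) and in a fit of clone B5 and parental cells alone (0.14). IGKV2D-40 has a further copy, IGKV2-40, whose 314 aligned coding bases are identical and which is not among the genes listed.

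IGKV2-24, a minor kappa segment, had 55.7 to 123 CPM in clone libraries, against 166 and 186 CPM in parental cells, with no overlap. It was called lower for the mean (-1.05 ± 0.20, adjusted p = 0.00549) and in clones B5 (-0.86, 0.0463), C1 (-0.87, 0.044) and C5 (-1.44, 0.00614). Most of these calls on IGKV2-24 rest on single libraries. The mean call ended without parental replicate 2 (0.0505), and the clone C5 call without clone C5 replicate 1 (0.0821). The clone B5 call ended without any 1 of 7 libraries, all but clone B5 replicate 2 (0.0644 to 0.163), and with scaling on the other genes alone (0.0521), and the clone C1 call without any 1 of the clone C1, clone C5 or parental libraries (0.0749 to 0.291).

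IGKV2-28 and IGKV2D-28, whose coding sequences are the same in all 360 aligned bases, divided their counts unevenly between libraries of 1 population. IGKV2-28 took 68.9%, 61.0% and 76.0% of the pair in replicate 1 of clones B5, C1 and C5, and 15.8%, 10.8% and 0% in their replicate 2, against 26.0% and 18.6% in replicates 1 and 2 of parental cells. IGKV2-28 thus had 302 CPM and 0 counts in the libraries of clone C5. Neither copy was called alone (IGKV2-28 -0.16 ± 1.26, adjusted p = 0.94; IGKV2D-28 -1.26 ± 0.52, 0.11). Summed, which was chosen after seeing the data, the pair was steady and lower in the clones. Its level was 560.1 ± 82.9 CPM in clone B5, 599 ± 29.6 CPM in clone C1 and 389 ± 12.9 CPM in clone C5, against 970.4 ± 68.4 CPM in parental cells (SD, n = 2 libraries each). The log2 fold change of the sum of IGKV2-28 and IGKV2D-28 was -0.94 ± 0.11 for the mean (adjusted p = 0.000486 with edgeR), -0.79 for B5 (0.00553), -0.69 for C1 (0.0104) and -1.32 for C5 (0.000431). IGKV1-39 took 8.05% to 13.9% of the counts it shares with IGKV1D-39 in the clones and 12.6% and 13.9% in parental cells, and their sum was -0.58 (adjusted p = 0.0619).

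**Figure D3:**
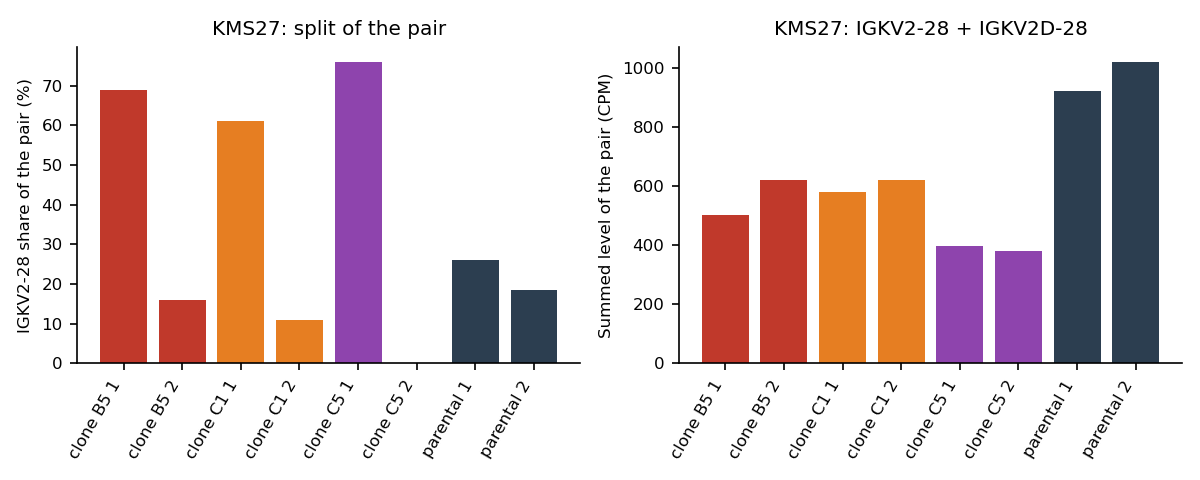
Left, share (%) of IGKV2-28 in the summed counts of IGKV2-28 and IGKV2D-28 in each KMS27 library; right, summed level of the pair in CPM, 1 bar per library, clones left of parental cells. The share lies between 0% and 76.0% and is higher in replicate 1 of every population, while the summed level is below both parental libraries in all 6 clone libraries.

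IGKV3D-7 and IGKV3OR2-268, an orphan segment outside the kappa locus, were among the few members that were higher in KMS27 clones, at very low levels. Over the 350 aligned coding bases, gaps left out, they are identical. IGKV3D-7 had 11 and 14 counts in clone B5, 58 and 32 in clone C1 and 98 and 89 in clone C5, against 7 and 7 in parental cells (log2 fold change 2.33 ± 0.36 for the mean, adjusted p = 0.00198). IGKV3D-7 passed the filter on low counts only through its clone libraries, the group where it is high. Its direction was therefore set by that selection, and the test is no separate evidence of a rise. IGKV3OR2-268 had 10 and 1 counts in clone B5, 51 and 19 in clone C1 and 79 and 51 in clone C5, against 0 and 3 in parental cells. It was listed through its clone libraries, the group where it is high, so its direction was set by that selection. The clones stood above parental cells 4.55-fold in clone B5, 16.3-fold in clone C1 and 42.1-fold in clone C5, with 95% counting intervals of 1.203 to 25.4, 5.34 to 80.7 and 14.1 to 207. Those intervals leave out the spread between libraries. Without 1 library at a time the fitted log2 fold change, which depends on a prior count where parental cells are at 0, ran from -0.0656 to 5.86 in clone B5, 2.88 to 7.68 in clone C1 and 4.28 to 9.08 in clone C5. Summed, which was chosen after seeing the data, the pair had 0.836 ± 0.0538 CPM in clone B5, 2.06 ± 0.146 CPM in clone C1 and 5.78 ± 0.267 CPM in clone C5, against 0.322 ± 0.0963 CPM in parental cells (SD, n = 2 libraries each). The sum holds the counts of both segments, so selection also set its direction. The edgeR test of the sum (adjusted p = 0.0283 in B5, 0.00106 in C1 and 7.91e-05 in C5) is therefore no separate evidence of a rise. Without parental replicate 1 the mean call on IGKV3OR2-268 (0.0151) ended (0.104), and so did the clone C1 call on IGKV3D-7 (0.00641 with it, 0.0584 without). The clone C1 call on IGKV3OR2-268 (0.02) ended without either clone C1 library or parental replicate 1 (0.0549 to 0.122).

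Lambda constant genes were a small part of KMS27 light chain counts, 0.535% to 1.09% in clones and 0.315% and 0.359% in parental cells. IGLC2, a lambda constant gene, had 5.08 and 4.52 CPM in clone B5, 4.61 and 5.57 CPM in clone C1 and 2.66 and 2.91 CPM in clone C5, against 1.05 and 1.48 CPM in parental cells. No library overlapped, and IGLC2 rose for the mean (1.69 ± 0.24, adjusted p = 0.00116) and in clones B5 (1.92, 0.00155), C1 (2.00, 0.00143) and C5 (1.14, 0.0189). The clone C5 call on IGLC2 ended without either clone C5 library or parental replicate 1 (0.0796 to 0.15). IGLC1 had 164 and 197 CPM in clone B5, 81.4 and 107 CPM in clone C1 and 89.0 and 136 CPM in clone C5, against 92.3 and 93.9 CPM in parental cells, and was called in clone B5 only (0.96, adjusted p = 0.0118), a call that ended without either parental library (0.0598 and 0.0703). The mean of IGLC1 was 0.42 (adjusted p = 0.108; called without clone B5 replicate 1, 0.0216, or clone C5 replicate 1, 0.0476), and its sum with IGLL5 0.19 (0.255). IGLC3, 99.1% identical to IGLC2, was called in clone B5 (1.93, adjusted p = 0.0402) but not with DESeq2 (0.13), in a fit of clone B5 and parental cells alone (0.0876) or without any 1 of the 8 libraries (0.0525 to 0.183). IGLC3 passed the filter on low counts only through its clone libraries, the group where it is high. Its direction was therefore set by that selection. IGLC5, a pseudogene with 1 to 15 counts a library, was too low to be tested.

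JCHAIN of KMS27 had 2704 and 4519 CPM in clone B5, 3939 and 5057 CPM in clone C1 and 1840.1 and 1939.9 CPM in clone C5, against 4994 and 6489 CPM in parental cells. Clone C1 overlapped the parental libraries, and clone C5 was far below them. JCHAIN was lower for the mean (-0.87 ± 0.20, adjusted p = 0.0133) and in clone C5 (-1.60, 0.00361), and not called in clones B5 (-0.67, 0.103) or C1 (-0.35, 0.358). In clone B5 it was called with DESeq2 (0.0181), with scaling to library totals alone (0.0434) and without clone B5 replicate 2 (-1.09, 0.00136). The mean call ended without either clone C5 library or parental replicate 2 (0.0531 to 0.144), and the clone C5 call without either clone C5 library (0.0567 and 0.0633).

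**Figure D4:**
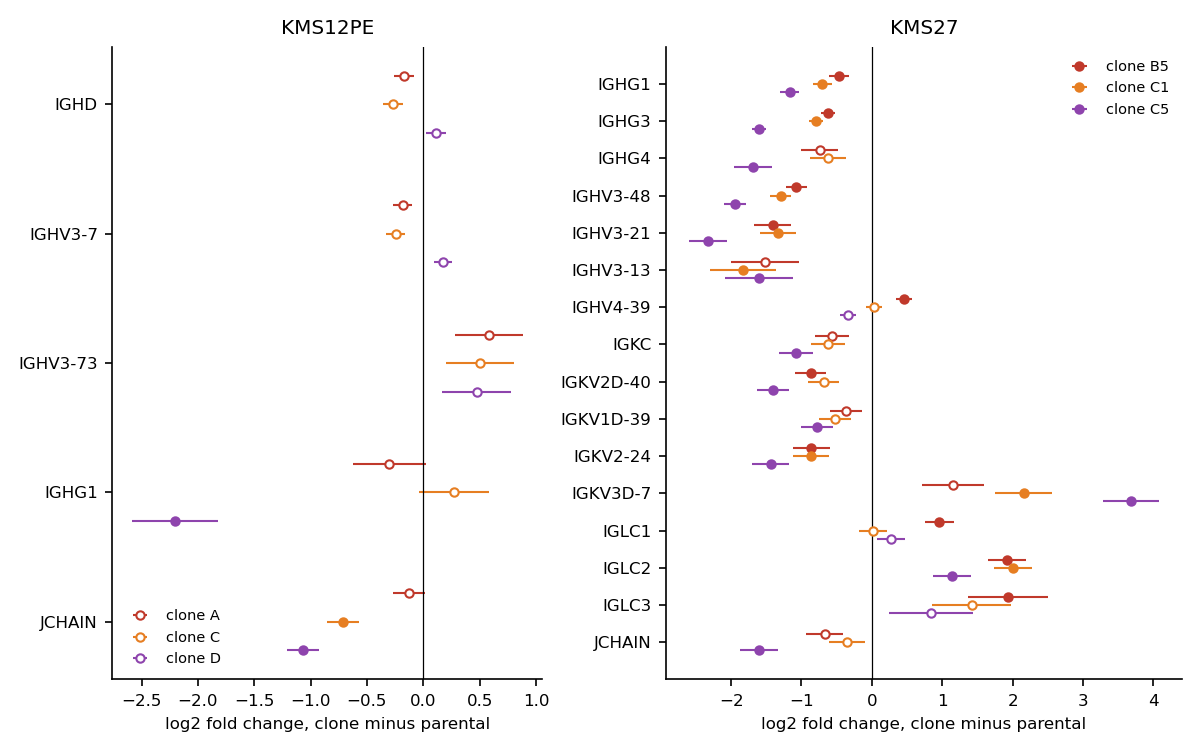
Log2 fold change of each clone minus parental, with bars of 1 standard error; filled points have an adjusted p under 0.05 and open points do not. In KMS27 clone C5 lies farthest below 0 for IGHG1 (-1.17), IGHV3-48 (-1.95) and JCHAIN (-1.60), and in KMS12PE JCHAIN lies at -0.13, -0.71 and -1.07 in clones A, C and D.

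The heavy chain RNA of KMS12PE was nearly all of the IgD class, and it differed little between clones and parental cells. Protein was not measured. IGHD, the constant region of IgD, gave 99.5% to 99.9% of heavy constant counts in the clones and 99.6% and 99.8% in parental cells, and IGHV3-7 gave 94.99% to 96.8% of heavy V counts in the clones and 96.9% and 97.0% in parental cells. IGHM, which lies beside IGHD, was not among the genes listed in either line. IGHD had 1287 and 1313 CPM in clone A, 1193 and 1241 CPM in clone C and 1602 and 1565 CPM in clone D, against 1458 and 1475 CPM in parental cells. Clones A and C lay below the parental libraries and clone D above them. The log2 fold change of IGHD was -0.11 ± 0.07 for the mean (adjusted p = 0.703), and no clone was called, with -0.17 in clone A (0.767), -0.27 in clone C (0.259) and 0.11 in clone D (0.602). With replicate number as a block IGHD was called lower in clone C (0.0162).

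IGHV3-7 followed the same order, with 132 and 139 CPM in clone A, 129 and 130.1 CPM in clone C and 174 and 173 CPM in clone D, against 147 and 161 CPM in parental cells. The clones differed among themselves (adjusted p = 0.0212), and none was called against parental cells (mean -0.08 ± 0.07, adjusted p = 0.792), save clone C with the replicate block (-0.24, 0.0423). IGHV3-73, the next V segment, had 3.95 to 5.84 CPM in clones and 3.34 and 3.46 CPM in parental cells and was not called (0.52, adjusted p = 0.546). IGHV1-2, the pseudogene IGHVII-44-2D and IGLV3-1, with 1 to 9 counts a library, were too low to be tested. Per kilobase of exon IGHD stood at 699 to 938 CPM and IGHV3-7 at 301 to 404 CPM in clones, against 854 and 864 CPM for IGHD and 341 and 373 CPM for IGHV3-7 in parental cells.

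Of the 9 members in KMS12PE 6 were tested. For the mean of the clones 2 were called, both lower, IGLC1 and JCHAIN (background 1.47% of all genes, 0.358% higher and 1.12% lower). Clone A had 1 called higher, against a background of 0.448% (0.212% higher and 0.236% lower). Clone C had 1 higher and 1 lower, against 1.78% (0.904% and 0.88%), with 4 calls under the replicate block, and clone D had 3 lower, against 5.16% (1.86% and 3.31%). Between the clones 4 of the 6 differed, against 8.22% of all genes, and 2 without clone A or clone D replicate 3. The 2 calls for the mean became 1 without either clone A library, clone C replicate 3 or either parental library, and those in clone C became 1 without any 1 of the clone A, clone C or parental libraries. No member was called in 1 direction in every clone. IGHG1 had 4.16 and 4.10 CPM in clone A, 5.99 and 6.28 CPM in clone C and 1.26 and 0.979 CPM in clone D, against 3.51 and 6.60 CPM in parental cells. With replicate number as a block in edgeR it was lower in clone D (-2.23, adjusted p = 0.000172). The fit without the block gave a weaker call. IGHG1 was called in clone D alone (-2.20 ± 0.38, adjusted p = 0.0119), and the call ended without clone D replicate 3 (0.0819), without parental replicate 3 (0.0812) and in a fit of clone D and parental cells alone (0.0592).

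IGLC1 was the member that separated the KMS12PE clones most. It had 111 and 106 CPM in clone A, 89.5 and 88.7 CPM in clone C and 0 and 1 counts in clone D, against 45.0 and 37.2 CPM (256 and 237 counts) in parental cells. Clones A and C were above both parental libraries, with log2 fold changes of 1.40 ± 0.12 (adjusted p = 0.00134) and 1.12 ± 0.12 (0.00222). In clone D IGLC1 was 718-fold lower, with a 95% counting interval of 128 to 28435 (adjusted p = 1.33e-06). The call for the mean therefore joins clones of opposite direction. IGLL5, whose exons cover those of IGLC1, had 149.9 and 136 CPM in clone A, 129 and 124 CPM in clone C and 0 counts in both clone D libraries, against 55.2 and 44.3 CPM in parental cells. IGLL5 rose in clones A (1.52, adjusted p = 0.00176) and C (1.35, 0.00185) and was at least 289.5-fold lower in clone D, set against 3 counts over the population. No kappa gene was listed in KMS12PE, and IGLV3-1, with 2 to 9 counts a library, was the only light chain V segment listed there.

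Genes around IGLC1 were looked at after these values were seen. Within 1 Mb on each side, PRAME, a tumour antigen gene in the lambda locus, had 10.7 to 14.7 CPM in clones A and C and 0 counts in both clone D libraries, against 12.6 and 11.3 CPM in parental cells, and was at least 69.95-fold lower in clone D. ZNF280A, a zinc finger gene, had 4 and 4 counts in clone D, against 28 and 30 counts in parental cells (-3.34, adjusted p = 0.0015). Of the 19 genes tested in this window other than IGLC1, 3 were called lower in clone D (IGLL5, PRAME and ZNF280A) and 1 higher (IGLL1), against 5.16% of all genes (1.86% higher and 3.31% lower). The IGLL5 call is not independent of IGLC1, because IGLL5 exons cover those of IGLC1. The other 15 were not called. They include MMP11, with 1 and 3 counts in clone D, against 7 and 12 in parental cells (-2.73, adjusted p = 0.0573), DERL3 (-0.90, 0.128), GNAZ (-2.11, 0.363) and BCR (0.25, 0.29). IGLV3-1 had 4 and 9 counts there, against 2 and 9 in parental cells. IGLL1, a surrogate light chain gene 677 kb beyond IGLC1, had 192 and 188 CPM in clone D, against 102 and 111 CPM in parental cells (0.84, adjusted p = 0.00114). DNA was not analysed here.

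JCHAIN of KMS12PE had 805 and 841 CPM in clone A, 609 and 490.0 CPM in clone C and 426 and 434 CPM in clone D, against 788 and 1011 CPM in parental cells. Clone A overlapped the parental libraries, and clones C and D lay below them. With replicate number as a block in edgeR, JCHAIN was lower for the mean (-0.63, adjusted p = 7.7e-06), in clone C (-0.71, 2.8e-05) and in clone D (-1.06, 4.4e-08). Clone A was not called there (-0.13, 0.612). In the fit without the block JCHAIN was lower for the mean (-0.64 ± 0.11, adjusted p = 0.0308), in clone C (-0.71, 0.0455) and in clone D (-1.07, 0.00318), and not in clone A (-0.13, 0.969). The mean call ended without either clone A library, clone C replicate 3 or either parental library (adjusted p of 0.0528 to 0.364). The clone C call ended without any 1 of the clone A, clone C or parental libraries (0.0679 to 0.286) and in a fit of clone C and parental cells alone (0.0569).

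**Figure D5:**
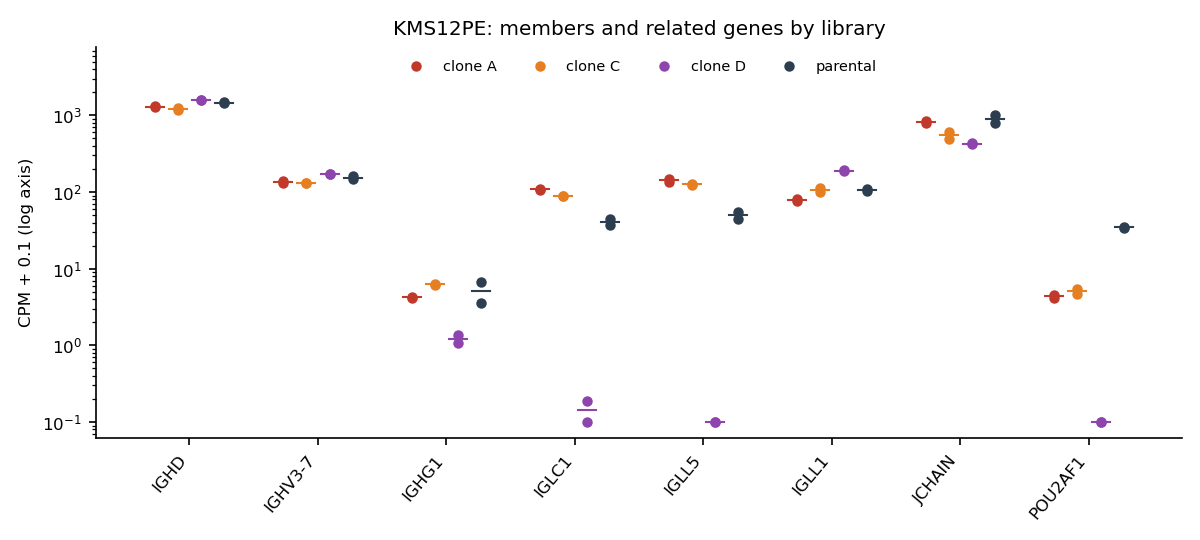
CPM plus 0.1 (log axis) of members and related genes in each KMS12PE library, with 1 point per library, a short line at each population mean and clones left of parental cells. IGLC1 and IGLL5 are above parental cells in clones A and C and at or near 0 in clone D, POU2AF1 is below parental cells in all 6 clone libraries and at 0 in clone D, and IGHD and IGHV3-7 stay within a narrow range.

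The response of the 4 members listed in both lines was compared in a joint fit of all 16 libraries, as the mean of the KMS12PE clones minus parental less the mean of the KMS27 clones minus parental. IGHV3-7 (difference 1.67 ± 0.39, adjusted p = 0.0113) and IGLC1 (-2.68 ± 0.36, 0.000256) were called (background 14.2% of genes, 6.45% higher and 7.7% lower), while IGHG1 (0.03, 0.965) and JCHAIN (0.25, 0.579) were not. IGHV3-7 is the leading segment in KMS12PE and near 1 CPM or less in KMS27, and the IGLC1 value joins KMS12PE clones of opposite direction. Without either KMS27 parental library 1 of these 2 calls remained.

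Genes of the machinery that builds antibodies fell widely in KMS27. Of 41 tested genes for folding, assembly and export, which act on antibody chains in the endoplasmic reticulum, 29 were lower and none higher in KMS27 clones, where 12.7% of all genes were called lower, with a median log2 fold change of -0.69 against -0.01 over all genes. SYVN1, a ubiquitin ligase of endoplasmic reticulum degradation, had 85.6 ± 10.5 CPM over the 3 clone means and 214 ± 11.7 CPM over the 2 parental libraries (SD; log2 fold change -1.33, adjusted p = 1.81e-05). MZB1, a chaperone of antibody assembly (-1.08, adjusted p = 0.000124), PDIA4, a disulfide isomerase (-1.003, 0.000188), and HSPA5, the chaperone BiP that binds free heavy chains (-1.06, 0.000268), fell as well. In KMS12PE 2 of 40 genes of this list were called for the mean, both lower (1.12% of all genes), namely HERPUD1 (-0.51, adjusted p = 0.00684) and P4HB (-0.53), and 12 with the replicate block; without either parental library none was called, and without any 1 clone A or clone C library 1 was. HSPA5 was not called in KMS12PE (-0.23, adjusted p = 0.373).

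Transcription factors of immunoglobulin genes were mixed. In KMS27 3 of 20 tested were higher, namely SPIB (1.59, adjusted p = 0.000206), PAX5 (0.80, 0.000634) and POU2F2 (0.95, 0.0243), and 2 lower, ID3 (-1.81, 7.23e-05) and TCF3 (-0.35, 0.0205). These 5 of 20 are a share near the 25.8% of all KMS27 genes called. PAX5 keeps the B cell programme, and POU2F2 binds immunoglobulin promoters. The plasma cell factors XBP1 (-0.21, adjusted p = 0.275), IRF4 (-0.09, 0.661) and PRDM1 (-0.03, 0.839), and POU2AF1 (0.13, 0.452), were not called for the mean. The 5 calls became 3 without clone C5 replicate 2 or either parental library, and 8 without clone B5 replicate 1. In KMS12PE 2 of 17 were called (1.47% of all genes), BACH2 higher (0.62, adjusted p = 0.0112) and POU2AF1, a coactivator of immunoglobulin promoters, lower, and 1 without either parental library. POU2AF1 had 4.49 and 4.02 CPM in clone A, 4.58 and 5.36 CPM in clone C and 0 counts in both clone D libraries, against 35.3 and 34.2 CPM in parental cells. It fell in clones A (-3.03, adjusted p = 0.0011) and C (-2.80, 0.00085) and was at least 203.5-fold lower in clone D.

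The lists that follow hold few genes each and are read against the 25.8% of all genes called for the mean in KMS27 and the 1.47% in KMS12PE. Genes that process immunoglobulin messenger RNA gave 2 higher (CSTF2, 0.63, adjusted p = 0.000964, and HNRNPLL, 0.47, 0.00629) and 1 lower (EAF2, -0.55, 0.0204) of 7 in KMS27, and none of 7 in KMS12PE by edgeR or DESeq2 (1 at an unadjusted p under 0.05). Without either KMS27 parental library 1 of the 3 calls remained, and without clone B5 replicate 1 or 2 there were 6 and 5. Partners of the B cell receptor gave BTK (1.79, adjusted p = 7.82e-06) and SYK (0.72, 0.00563) higher of 6 in KMS27, with 1 call without parental replicate 2. In KMS12PE SYK, 1 of 5 tested, had 10.9 and 7.66 CPM in clone A, 0 and 1 counts in clone C and 0 counts in clone D, against 1.93 and 2.83 CPM in parental cells. SYK was 61.4-fold lower in clone C, with a counting interval of 10.2 to 2506, and at least 14.1-fold lower in clone D. Its call for the mean ended without either clone A or parental library or clone C replicate 1.

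Genes of rearrangement and diversification included RAG1, a subunit of the V(D)J recombinase, which was lower in KMS27 (-1.22, adjusted p = 0.0348) and not called there without any 1 of the clone C1, clone C5 or parental libraries. In KMS12PE IGLL5 alone of 7 was called. Receptors of antibodies gave 2 higher and 2 lower of 5 in KMS27. FCRL4, a receptor that binds IgA, had 0 counts in parental cells and was at least 7.45-, 37.38- and 6.48-fold higher in clones B5, C1 and C5. FCGRT, the neonatal Fc receptor, had 11 to 24 counts in clone libraries, against 3 and 4 in parental cells (2.09, adjusted p = 0.0137). FCRL4 and FCGRT were listed through their clone libraries, so their direction was set by that selection. FCMR, the IgM receptor (-1.36, 0.00182), and TRIM21, a cytosolic antibody receptor (-0.58, 0.0126), were lower. Without parental replicate 2 the 4 calls became 2. The 1 receptor tested in KMS12PE was not called.

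Neighbours of the heavy chain locus and of its translocation partner gave 3 higher and 1 lower of 7 in KMS27, and in KMS12PE 1 higher and 1 lower of 9. CRIP1, a LIM domain gene near the end of chromosome 14, was higher in both lines, with 19.1 ± 1.02 CPM over the KMS27 clones and 6.42 ± 0.623 CPM in parental cells (1.57, adjusted p = 9.97e-05), and 108 ± 38.8 CPM over the KMS12PE clones and 57.8 ± 4.47 CPM in parental cells (0.84, 0.00229). In KMS27 BRF1 (0.55, adjusted p = 0.0105) and PACS2 (0.42, 0.0432) were higher and BTBD6 (-2.06, 0.0064) lower, with 2 calls without parental replicate 1 and 1 without parental replicate 2. MYEOV, a gene beside CCND1, had 25.4 and 26.2 CPM in KMS12PE clone D, against 310 and 319 CPM in parental cells (-3.60, adjusted p = 1.5e-07). CCND1 was not called for the mean in KMS12PE (0.06, adjusted p = 0.912) or KMS27 (-0.06, 0.75). IGHMBP2, the gene the pattern takes by its letters, was not called for the mean in either line (0.19, adjusted p = 0.836, and -0.39, 0.114).

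Library totals ran from 5831289 to 13674426 counts in KMS12PE and from 20257318 to 52615971 in KMS27, so low members were measured better in KMS27. All 8 plasma cell markers were listed in both lines, with summed levels of 2433 to 3279 CPM in clones and 2559 and 2670.0 CPM in parental cells of KMS12PE, and 3481 to 4695 CPM in clones and 4601 and 4856 CPM in parental cells of KMS27. None of the 8 was called for the mean in KMS12PE by edgeR (3 at an unadjusted p under 0.05), and 2 were called lower in KMS27. MZB1, which is also in the folding list, is 1 of these 2. Over all KMS27 genes 12.7% were called lower and 13% higher for the mean. B cell markers were not listed in KMS12PE. In KMS27 3 of 5 (MS4A1, PAX5 and CR2) were listed, with a summed level of 22.5 to 36.4 CPM in clones and 14.2 and 15.3 CPM in parental cells, and 1, PAX5, was called higher. Of 6 T and natural killer cell markers, CD3G alone was listed in KMS12PE, with 0 to 1.55 CPM in clones and 1.10 and 1.76 CPM in parental cells. In KMS27 CD3E and NKG7 summed to 1.08 to 3.27 CPM in clones and 0.508 and 0.741 CPM in parental cells, and both were called higher, NKG7 with so few parental counts that it was listed through its clone libraries. Of 4 markers of stroma and endothelium PECAM1 alone was listed, with 7.89 to 11.3 CPM in clones and 6.85 and 8.48 CPM in parental cells of KMS12PE, and 1.69 to 9.18 CPM in clones and 1.64 and 1.92 CPM in parental cells of KMS27, where it was called higher. No myeloid or erythroid marker was listed in either line. The part of other cell types in the member levels was not tested.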

How the data were processed

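Libraries were prepared from poly-A RNA with 200 ng of input and the Kapa mRNA HyperPrep chemistry of Roche, per the labels' protocols. For each line the authors deposited raw counts in 1 table with a row per gene symbol. The reads were set against hg38 according to the submitters' processing notes; aligner, counting tool, annotation and strandedness: not given in the sources used here. Every gene listed reached 5 counts in at least 4 of 8 libraries. All columns were used (0 left out). Each line was fitted with edgeR 4.0.16 (R 4.3.3) on the counts with TMM, filterByExpr and 1 mean per population; 12279 genes were tested in KMS12PE, 14088 in KMS27 and 11623 in the joint fit. P-values are 2-sided, with Benjamini-Hochberg adjustment over the genes of a fit. DESeq2 1.42.0 was an alternative. The fits were tested on simulated data. Symbols were matched to GENCODE release 29 (38 of 39).

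The members and lists were chosen with earlier results of these data known. Genes named are JCHAIN, all constant genes, the 2 highest V segments of each kind, up to 6 further members with the smallest adjusted p, members called in 1 clone alone past a log2 fold change of 2, IGHMBP2, IGLL1 and IGLL5, up to 3 called genes per list and direction, and CCND1, PRDM1, XBP1, IRF4, POU2AF1, MZB1 and HSPA5. Other genes were named after their values were seen, and 1 gene that the rule takes is not reported here. A population at 0 counts is set against 3 counts over the population, and intervals cover counting error only.

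Replicate numbers come from the titles. In KMS12PE libraries of the same number deviated together (correlations of 0.254 to 0.537 between populations over all genes tested), so the numbers pair the samples there, and values with the replicate block stand beside the results they change.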

Additional observations from a re-analysis of the deposited data

Results flagged for a closer look

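The response of 2 members differed between the lines by a test of the difference itself. For IGHV3-7 the KMS12PE response minus the KMS27 response was 1.67 ± 0.39 on the log2 scale (SE; adjusted p = 0.0113, edgeR joint fit), with -0.08 in KMS12PE, where it is the leading heavy V segment, and -1.70 in KMS27, where no library has more than 28 counts. For IGLC1 the difference was -2.68 ± 0.36 (adjusted p = 0.000256), and the 3 KMS12PE clones do not share a direction (1.40 in clone A, 1.12 in clone C and 1 count in clone D), while the mean of the KMS27 clones was 0.42. Without either KMS27 parental library 1 of these 2 calls remained.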

How the results depend on the processing

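With 2 libraries a population, single libraries decide many calls, and members under about 1 CPM rest on few counts. Near-identical copies limit what a single symbol shows. Over single members, 1547 alternative values kept their direction and side of the threshold, 130 lost a call, 53 gained one and 12 turned direction; over counts and shares 339 stayed within 1.5 times or 1 SD, 79 moved and 1 turned. The cause of these changes was not tested. Summing identical or overlapping copies, chosen after seeing the data, moved no count.

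With the replicate block, members called became 4 in KMS12PE clone C (2 without it), 15 in KMS27 clone C1 (9) and 14 among the KMS27 clones (9), the KMS12PE folding list 12 (2) and the KMS27 RNA processing list 5 (3). In KMS27 the numbers may not pair the samples (correlations of 0.0597 to 0.444). The block gave 19 members called for the KMS27 mean, against 15 without it, 15 in clone B5 (10) and 20 in clone C5 (17). It called IGKC in clones B5 (-0.59, adjusted p = 0.0316) and C1 (-0.63, 0.0232), JCHAIN in B5 (0.0153), IGKV2D-40 in C1 (0.00868), the mean of IGHV3-7 (-1.83, 0.0131) and the mean of IGLC1 (0.0241). The block also called IGHG4 in B5 (-0.74, 0.0404), IGKV1D-39 in C1 (-0.54, 0.0364), IGHA1 higher in C1 (1.73, 0.0318) and IGHV3-7 in C5 (-2.71, 0.0138). DESeq2 gave 4 for the KMS12PE folding list and 5 for the KMS27 RNA processing list. A fit of parental cells and 1 clone alone gave 1 in KMS12PE clone C and 5 in KMS27 clone B5 (10). Scaling to library totals alone left 1 in the KMS27 rearrangement list (2). Without JCHAIN the share differed from parental cells by -0.0191 percentage points in KMS12PE clone C (-0.0530 with it), 0.0117 in clone D (-0.0344) and -2.13 in KMS27 clone C5 (-2.51).

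Without 1 library at a time, members called ranged from 1 to 2 for the KMS12PE mean, 1 to 2 in clone C, 2 to 3 in clone D and 2 to 4 among clones. In KMS27 they ranged from 7 to 20 for the mean, 4 to 15 in clones B5 and C1, 8 to 21 in clone C5 and 3 to 19 among clones, and from 1 to 2 for the line difference. List counts ranged in KMS12PE from 1 to 2 (transcription), 0 to 2 (folding) and 0 to 1 (receptor partners), and in KMS27 from 3 to 8 (transcription), 1 to 6 (RNA processing), 1 to 3 (receptor partners), 0 to 4 (rearrangement), 2 to 4 (antibody receptors) and 1 to 4 (neighbours). The lowest and highest log2 fold changes of values that turned direction were -0.67 and 0.23 for IGHG1 in KMS12PE clone A, -0.10 and 0.80 for IGHG1 in KMS12PE clone C, -0.30 and 0.0579 for JCHAIN in KMS12PE clone A, -0.82 and 0.0216 for the mean of IGHA2, -0.0580 and 0.11 for IGHV4-39 in KMS27 clone C1, -0.0656 and 5.86 for IGKV3OR2-268 in clone B5, and -0.19 and 0.20 for IGLC1 in clone C1 and -0.0717 and 0.55 in clone C5, none of which was called in the edgeR fit of all 8 libraries. IGLC1 in clone C1 also turned to -0.0509 with library totals alone and -0.0022 with the block, and IGHV4-39 to -0.0450 with library totals alone and -0.01 without parental replicate 2.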
